A study of Mus musculus with 6 samples.

Results

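The matrix proteases and their inhibitors were taken as every protein-coding gene whose GENCODE mouse symbol is Mmp, Timp, Adamts or Adamtsl followed by its number. This gave 50 of the 54331 genes in the table, namely 22 Mmp, 4 Timp, 19 Adamts and 5 Adamtsl genes. The cells were male mouse embryonic fibroblasts (MEFs) from pooled E13.5 embryos of an Oct4-EGFP transgenic line on a mixed C57BL/6, DBA/2 and ICR background. They had been transduced with retroviruses for Oct4, Sox2 and Klf4 (OSK), which drive reprogramming towards induced pluripotent stem cells, together with AKT-MER, a myristoylated AKT kinase fused to a modified estrogen receptor that is switched on by 4-hydroxytamoxifen (4OHT). Cells of both groups carried all 4 retroviruses. The OSKA + 4OHT group received 1 µM 4OHT from 3 days post infection (dpi) and the OSKA − 4OHT group a mock treatment, and the 6 libraries analysed here include no cells without AKT-MER that received 4OHT. RNA was taken at 10 dpi from 3 wells per group, and each well held reprogramming and unreprogrammed cells together. The wells were replated from a single infected culture, so p-values measure the spread between wells rather than between infections or animals. In bulk RNA, fewer cells of a type and less RNA per cell cannot be told apart.

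Matrix metalloproteinases (MMPs) are zinc enzymes that are made as inactive precursors and that, once activated, cut collagens, proteoglycans and other proteins outside the cell. Most MMPs are secreted, whereas the membrane-type enzymes stay at the cell surface and can activate secreted ones there. ADAMTS enzymes are secreted relatives with thrombospondin repeats, and they include aggrecanases, which cut large proteoglycans, and procollagen N-proteinases, which trim the ends of collagen precursors. ADAMTS-like (ADAMTSL) proteins resemble the non-catalytic part of ADAMTS enzymes, have no protease domain and sit largely on fibrillin microfibrils. Tissue inhibitors of metalloproteinases (TIMPs) bind the active site of these enzymes, and TIMP3 differs from the others in that it stays bound to the matrix. Fibroblasts make many of these proteins, while some members are known mainly from other cells, such as MMP8 from neutrophils and ADAMTS13 from the liver, and the chromosome 9 group of MMP genes is known as a target of the transcription factor AP-1.

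Values are TPM, a transcript level that is corrected for transcript length and sums to the same total in each well. Of the 50 members, 30 averaged at least 1 TPM over the 6 wells and entered the test, which was limma-trend on log2(TPM + 0.5) with Benjamini-Hochberg adjustment over all 15382 genes tested. A member is said to have risen or fallen where its adjusted p was below 0.05, and fold changes are on the log2(TPM + 0.5) scale, OSKA + 4OHT over OSKA − 4OHT. Depth cannot be read from TPM, so no counting error can be given. The number of genes above 0 per well was 15814 to 17692 in OSKA − 4OHT and 17578 to 18230 in OSKA + 4OHT. Of 5708 genes with a median above 20 TPM, 97 were listed at 0 in at least 1 well, so that a value of 0 is given as listed and not as absence.

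The start sites are shown first for clustered MMP genes, which were low in both groups, and for members whose levels changed. A RefSeq promoter window (GRCm38.p6, 250 bases before to 50 bases after the start) was at hand for 35 of the members. The following stretches hold the last 130 bases before the start and the first 20 after it, 5′ to 3′ on the gene's own strand. For 4 clustered MMP genes on chromosome 9, capitals mark the AP-1 letters TGANTCA, which read the same on both strands, and the TATA letters TATAAA.
Mmp3 (chr9:7445692-7445841, plus strand): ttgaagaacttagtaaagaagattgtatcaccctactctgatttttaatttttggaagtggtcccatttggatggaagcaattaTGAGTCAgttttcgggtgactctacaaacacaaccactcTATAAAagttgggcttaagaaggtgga
Mmp10 (chr9:7502212-7502361, plus strand): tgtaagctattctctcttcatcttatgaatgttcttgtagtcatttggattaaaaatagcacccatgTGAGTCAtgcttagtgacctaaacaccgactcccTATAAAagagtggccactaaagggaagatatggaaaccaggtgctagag
Mmp13 (chr9:7272384-7272533, plus strand): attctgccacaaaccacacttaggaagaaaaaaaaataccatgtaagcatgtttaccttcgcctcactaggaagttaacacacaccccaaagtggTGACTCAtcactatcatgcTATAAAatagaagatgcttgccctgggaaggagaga
Mmp7 (chr9:7691960-7692109, plus strand): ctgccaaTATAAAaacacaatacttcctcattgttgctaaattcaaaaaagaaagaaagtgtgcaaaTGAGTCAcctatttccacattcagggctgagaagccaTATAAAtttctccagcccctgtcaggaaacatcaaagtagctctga

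For the 3 members with a window whose levels changed, capitals mark every CG pair.
Timp2 (chr11:118355392-118355541, minus strand): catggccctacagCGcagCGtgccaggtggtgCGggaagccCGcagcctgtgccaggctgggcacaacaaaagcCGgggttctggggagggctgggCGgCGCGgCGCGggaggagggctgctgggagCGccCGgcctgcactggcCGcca
Timp3 (chr10:86300282-86300431, plus strand): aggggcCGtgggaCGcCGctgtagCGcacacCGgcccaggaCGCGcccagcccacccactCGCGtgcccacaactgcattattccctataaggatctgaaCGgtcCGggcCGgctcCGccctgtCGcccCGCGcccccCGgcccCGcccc
Adamtsl4 (chr3:95687898-95688047, minus strand): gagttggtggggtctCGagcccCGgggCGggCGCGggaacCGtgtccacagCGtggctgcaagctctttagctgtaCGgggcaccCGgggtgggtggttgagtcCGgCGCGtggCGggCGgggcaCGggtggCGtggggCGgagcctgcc

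The AP-1 letters were found in the windows of 7 of the 9 clustered MMP genes (Mmp1b, Mmp3, Mmp7, Mmp10, Mmp12, Mmp13 and Mmp20) and of 0 of the 26 other members with a window. Members without a window, among them Mmp2, Mmp9, Adamts4 and Adamts5, could not be searched, so the comparison does not speak for them. They stand in 7.81% of all 32851 RefSeq windows of this length. In Mmp13 the match began 35 bases before the start site, in Mmp12 44 bases and in Mmp3 46 bases. In Mmp7 and Mmp10 it began 63 bases before, in Mmp1b 93 bases and in Mmp20 95 bases. The TATA letters, searched on both strands, were in 8 of the 9 clustered genes and 3 of the 26 others, against 13.62% of all windows. The median number of CG pairs in 300 bases was 2 in the clustered genes (range 0 to 7), 22 in the other members (range 2 to 46) and 7 over all windows. The windows of Timp2, Timp3 and Adamtsl4 held 25, 24 and 24 CG pairs, and those of the other inhibitors, Timp1 and Timp4, held 8 and 2. Such numbers did not mark the members that changed. Adamts2 and Adamts3, which did not pass, held 41 each, and Mmp14, which did not pass either, held 10. These are counts of letters in a window and not of bound sites.

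Among the tested members 4 of 30 passed, 2 higher (Adamtsl4 and Adamts4) and 2 lower (Timp2 and Timp3) in OSKA + 4OHT. This was 13.3% of the members, beside 5.49% of all genes tested (3.52% higher and 1.97% lower). At an unadjusted p below 0.05 there were 13 of the 30 members and 3281 of the 15382 genes tested. The values of the 3 wells of one group lay wholly above or below those of the other in 15 of the 30 members, 7 higher and 8 lower in OSKA + 4OHT. Over all genes such separation was seen in 28.2%, with 18.1% higher and 10% lower. Mmp17 (higher) and Adamtsl3 (lower) are among the 15, although each passed the filter through 1 group alone. Adamtsl3 is also among the 13, and nothing is drawn from the place of either gene in these counts. The median log2 fold change was −0.22 over the tested members and 0.14 over all genes, and 17 of the 30 members had a negative value whereas 59.3% of all genes had a positive one. Because the members that were tested had to reach a mean of 1 TPM, these counts do not speak for the other 20.

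**Figure D1:**
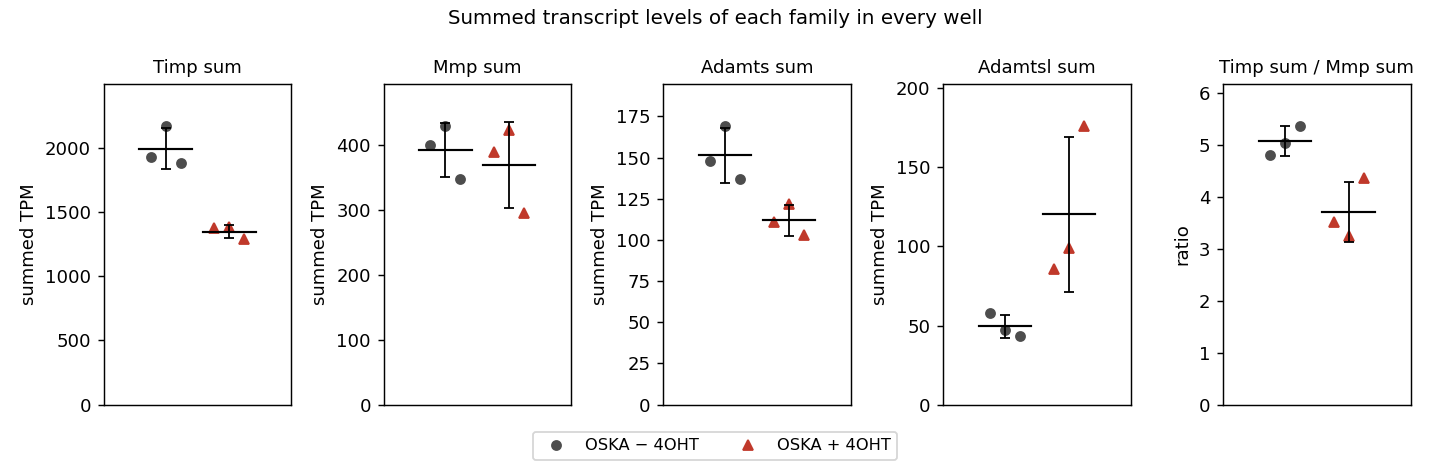
Summed TPM of each family in every well, and the ratio of the Timp to the Mmp sum. Points are single wells (n = 3 per group), horizontal lines are means and error bars are SD. The Timp sum lies between 1876 and 2171 TPM without 4OHT and between 1290 and 1378 TPM with it, whereas the Mmp sums of the groups overlap.

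Timp1, Timp2 and Timp3 had the highest mean levels of all members in both groups, and the summed Timp level was lower with 4OHT. With 4OHT the mean of Timp2 was close to that of Mmp14 (275 and 227 TPM), and in OSKA + 4OHT replicate 2 Mmp14 stood above it (278 and 273 TPM). Timp2 and Timp3 fell, whereas Timp1 did not pass the test, and Timp4 was close to 0 throughout. The 4 Timp genes together made 1928, 2171 and 1876 TPM in OSKA − 4OHT and 1372, 1378 and 1290 TPM in OSKA + 4OHT, a mean of 1991 ± 158 against 1347 ± 49.0 (SD, n = 3). The 2 groups did not overlap, and the mean with 4OHT was 0.676 times that without.

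Timp2 encodes the inhibitor that also takes part, with MMP14, in activating MMP2 at the cell surface. Its gene lies on chr11:118301069-118355740, minus strand. It was at 507, 619 and 510.4 TPM in OSKA − 4OHT and at 306, 273 and 247 TPM in OSKA + 4OHT. Each treated well was below each mock-treated well, and the spread within a group was small beside the gap. The mean went from 546 ± 63.6 to 275 ± 29.7 TPM (SD, n = 3), a log2 fold change of −0.98 (SE 0.135, 95% interval −1.31 to −0.66, limma-trend adjusted p = 0.0143). When wells were left out 1 at a time the adjusted p was between 0.0468 and 0.0724, and it stayed below 0.05 where OSKA + 4OHT replicate 3 was left out but not where any of the other 5 wells was.

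Timp3, the matrix-bound inhibitor, which also inhibits several ADAM and ADAMTS enzymes, was the most abundant member. It lies on chr10:86300372-86349506, plus strand. Its levels were 952, 1026 and 869 TPM in OSKA − 4OHT and 657, 613 and 601 TPM in OSKA + 4OHT. Again the groups were apart, with the 3 treated wells close together. The mean went from 949 ± 78.4 to 624 ± 29.4 TPM (SD, n = 3), with a log2 fold change of −0.60 (SE 0.101, 95% interval −0.84 to −0.36, adjusted p = 0.0263). The adjusted p stayed below 0.05 where OSKA − 4OHT replicate 3 was left out (0.0492) and rose to as much as 0.102 where another well was. Of the exon bases of Timp3, 21.3% also lie in exons of Syn3 on the other strand, and Syn3 was at 1.70 to 7.99 TPM. Whether reads were assigned by strand is not given in the sources used here.

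Timp1, a secreted inhibitor that is readily induced by growth factors and cytokines, lies on chrX:20870166-20874735. It was at 468, 526 and 496 TPM without 4OHT and at 408, 492 and 442 TPM with it. The groups overlapped, and the log2 fold change was −0.15 (95% interval −0.42 to 0.11, adjusted p = 0.495). Timp4 was listed at 0 in the 3 OSKA − 4OHT wells and at 0.106, 0.882 and 0.120 TPM in the OSKA + 4OHT wells, below the level needed for the test.

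The make-up of the inhibitor pool differed between the groups. Timp1 made 24.3, 24.2 and 26.5% of the Timp sum in OSKA − 4OHT and 29.8, 35.7 and 34.2% in OSKA + 4OHT. The ratio of Timp1 to Timp2 was 0.922, 0.850 and 0.972 without 4OHT and 1.33, 1.80 and 1.79 with it. Such ratios within a well do not depend on how wells are scaled to each other. Over the levels in OSKA − 4OHT, Timp3 stood above Timp2 and Timp1 in each well, and the ranges of Timp2 and Timp1 overlapped. In OSKA + 4OHT the order was Timp3, Timp1 and Timp2, with no overlap between neighbours.

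**Figure D2:**
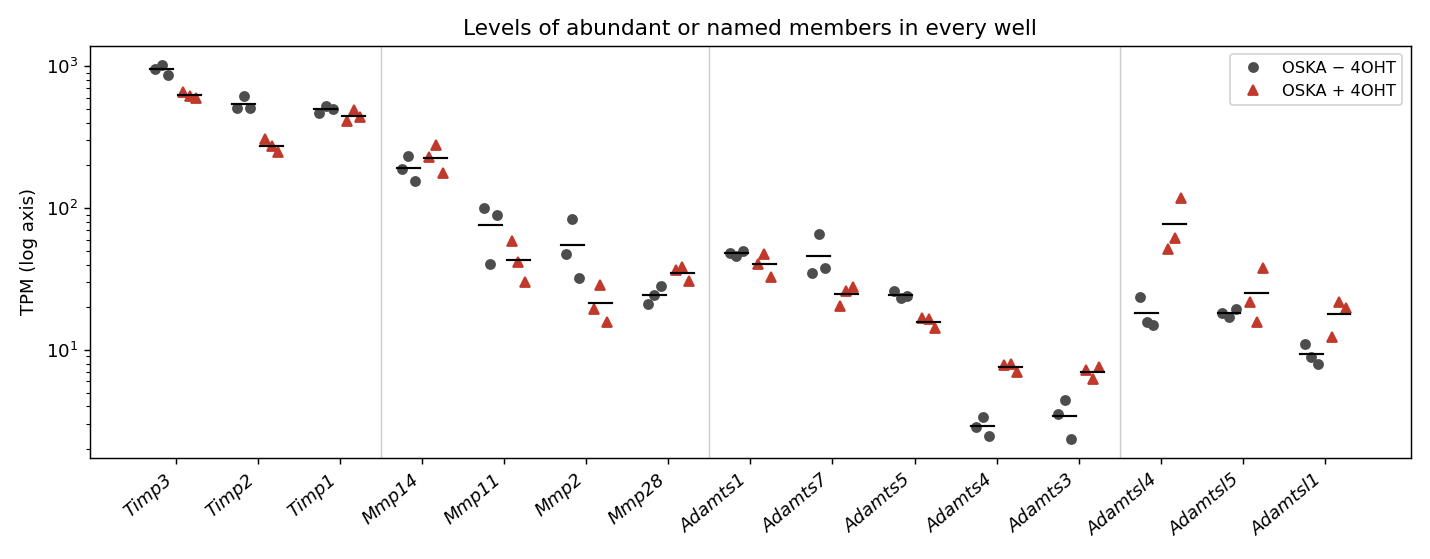
TPM (log axis) of 15 abundant or named members in every well, by family. Grey circles are OSKA − 4OHT and red triangles OSKA + 4OHT, with a line at each group mean (n = 3). Timp2, Timp3, Adamts5, Adamts7 and Mmp2 are lower in each treated well, and Adamtsl4, Adamtsl1, Adamts4, Adamts3 and Mmp28 higher.

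No MMP gene passed the test, and the summed Mmp level overlapped between the groups. Of 13 tested Mmp genes 0 passed limma-trend, and 3 had an unadjusted p below 0.05, beside 3281 of the 15382 genes tested. The groups did not overlap in 5 (3 higher, 2 lower), a share of 38.5% beside 28.2% of all genes tested. The 3 higher include Mmp17. It entered the test through the OSKA + 4OHT wells alone, so nothing is drawn from its place in this share. The median log2 fold change of the 13 was 0.05. The Mmp sum was 399.9, 430.3 and 348.6 TPM in OSKA − 4OHT and 389.2, 423.9 and 295.9 TPM in OSKA + 4OHT. The ratio of the Timp sum to the Mmp sum was lower in each treated well, at 3.52, 3.25 and 4.36 against 4.82, 5.04 and 5.38.

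Mmp14, the membrane-type enzyme MT1-MMP that cuts collagen at the cell surface and activates the MMP2 precursor, was the most abundant Mmp gene (chr14:54431612-54445364). It was at 189.7, 232 and 156 TPM without 4OHT and at 228, 278 and 175 TPM with it. The groups overlapped, and the log2 fold change was 0.23 (95% interval −0.30 to 0.77, adjusted p = 0.592). Mmp2 encodes gelatinase A, which cuts denatured collagen and type IV collagen (chr8:92827291-92853420). It was at 47.2, 84.2 and 32.1 TPM without 4OHT and at 19.6, 28.8 and 15.7 TPM with it. Each treated well was below each mock-treated well, although the mock-treated wells varied widely among themselves, and the log2 fold change of −1.27 (SE 0.396, 95% interval −2.22 to −0.31) did not pass (adjusted p = 0.132).

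Mmp14 and Mmp2 parted more clearly when they were set against each other within a well. The ratio of Mmp14 to Mmp2 was 4.02, 2.75 and 4.85 in OSKA − 4OHT and 11.6, 9.67 and 11.2 in OSKA + 4OHT. Mmp14 made 47.4, 53.8 and 44.7% of the Mmp sum without 4OHT and 58.5, 65.6 and 59.3% with it. These ratios were formed after the levels had been seen, and no test was made of them.

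Mmp11, stromelysin 3, which is activated inside the cell by furin, was at 99.8, 40.4 and 89.5 TPM without 4OHT and at 58.3, 41.5 and 30 TPM with it, with overlap and an adjusted p of 0.346. Of its exon bases 5.58% lie in exons of Chchd10 on the other strand, and Chchd10 was at 70.0 to 89.6 TPM without and 192 to 266 TPM with 4OHT. The part of that overlap in the Mmp11 values was not tested. Mmp9, gelatinase B, was at 1.35, 1.13 and 0.760 TPM without 4OHT and at 0.655, 0.629 and 0 TPM with it. It did not reach the mean needed for the test.

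The remaining tested Mmp genes outside the chromosome 9 cluster were looked at to account for each member, and not by the rule for named genes. Mmp28 (epilysin) was higher in each treated well, at 36.4, 38.2 and 30.5 against 21.1, 24.4 and 28.0 TPM (log2 fold change 0.51, adjusted p = 0.177). Mmp19 was likewise higher in each, at 8.30 to 9.57 against 5.32 to 7.04 TPM (adjusted p = 0.252), with 28.3% of its exon bases in exons of other-strand genes. Mmp15, the membrane-type enzyme MT2-MMP, was lower in each treated well, at 2.55 to 3.31 against 4.71 to 7.35 TPM (log2 fold change −1.05, adjusted p = 0.102). None of these 3 separations passed the test.

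Mmp17, the membrane-type enzyme MT4-MMP, was higher in each treated well, at 6.00, 0.968 and 0.825 against 0.617, 0.371 and 0.357 TPM. A single well, OSKA + 4OHT replicate 1, stood far above the rest, and the adjusted p was 0.396. Mmp17 entered the test through the treated wells alone, so nothing is drawn from its separation. Mmp16 (MT3-MMP) was at 4.20, 14.6 and 2.61 TPM without 4OHT and at 3.77, 2.24 and 6.42 TPM with it, and Mmp23 at 9.35, 9.10 and 11.1 against 6.15, 3.53 and 16.4 TPM. Both overlapped between the groups, with adjusted p-values of 0.714 and 0.675.

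**Figure D3:**
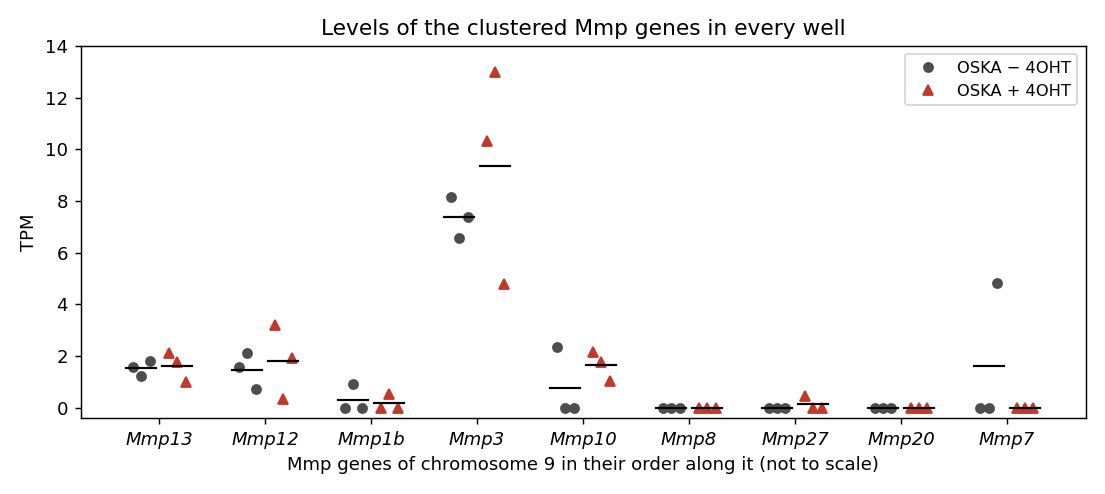
TPM of the 9 Mmp genes of the chromosome 9 cluster in every well, in their order along the chromosome (not to scale), with a line at each group mean (n = 3). The highest value in a well is 13.0 TPM, for Mmp3, and the groups overlap for the 4 that were tested.

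Mmp genes of the chromosome 9 cluster were low in both groups. The cluster holds 9 members within 427 kb (chr9:7272514-7699585, GRCm38), among them the collagenases Mmp8 and Mmp13 and the stromelysins Mmp3 and Mmp10. Their summed level was 13.7, 10.9 and 14.8 TPM in OSKA − 4OHT and 18.3, 17.4 and 8.75 TPM in OSKA + 4OHT. Of the 4 that were tested (Mmp3, Mmp10, Mmp12 and Mmp13), 0 passed limma-trend and 0 had an unadjusted p below 0.05.

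Mmp3, stromelysin 1, was at 8.15, 6.58 and 7.37 TPM without 4OHT and at 10.3, 13.0 and 4.80 TPM with it (chr9:7445822-7455975, log2 fold change 0.23, 95% interval −0.68 to 1.14, adjusted p = 0.769). Mmp13, the main collagenase of mouse connective tissue, was at 1.59, 1.24 and 1.82 TPM and at 2.12, 1.76 and 1.02 TPM (chr9:7272514-7283331, adjusted p = 0.981). Mmp10 was at 2.36, 0 and 0 TPM without 4OHT and at 2.14, 1.78 and 1.02 TPM with it (chr9:7502352-7510240, adjusted p = 0.484). In all 3 the values of the groups overlapped. Mmp12, the macrophage elastase, was at 1.57, 2.13 and 0.741 TPM and at 3.22, 0.332 and 1.92 TPM.

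The values of Mmp3, Mmp10 and Mmp1b carry some uncertainty, since reads from stretches that related genes share can be split between them. In the GENCODE transcripts, 14.6% of the 31-base words of Mmp3 and 11.9% of those of Mmp10 also occur in another gene, mostly in each other, and 20.7% of those of Mmp1b occur in Mmp1a. Mmp1b and Mmp12 also overlap on opposite strands. Mmp1b was above 0 in 1 well of each group (0.917 and 0.548 TPM), Mmp27 in 1 well (0.466 TPM) and Mmp7, matrilysin, in 1 well (4.84 TPM, OSKA − 4OHT replicate 3). Mmp8 and Mmp20 were listed at 0 in all 6 wells. The AP-1 letters were thus present at genes with a level of up to 13.0 TPM and at Mmp20, listed at 0.

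**Figure D4:**
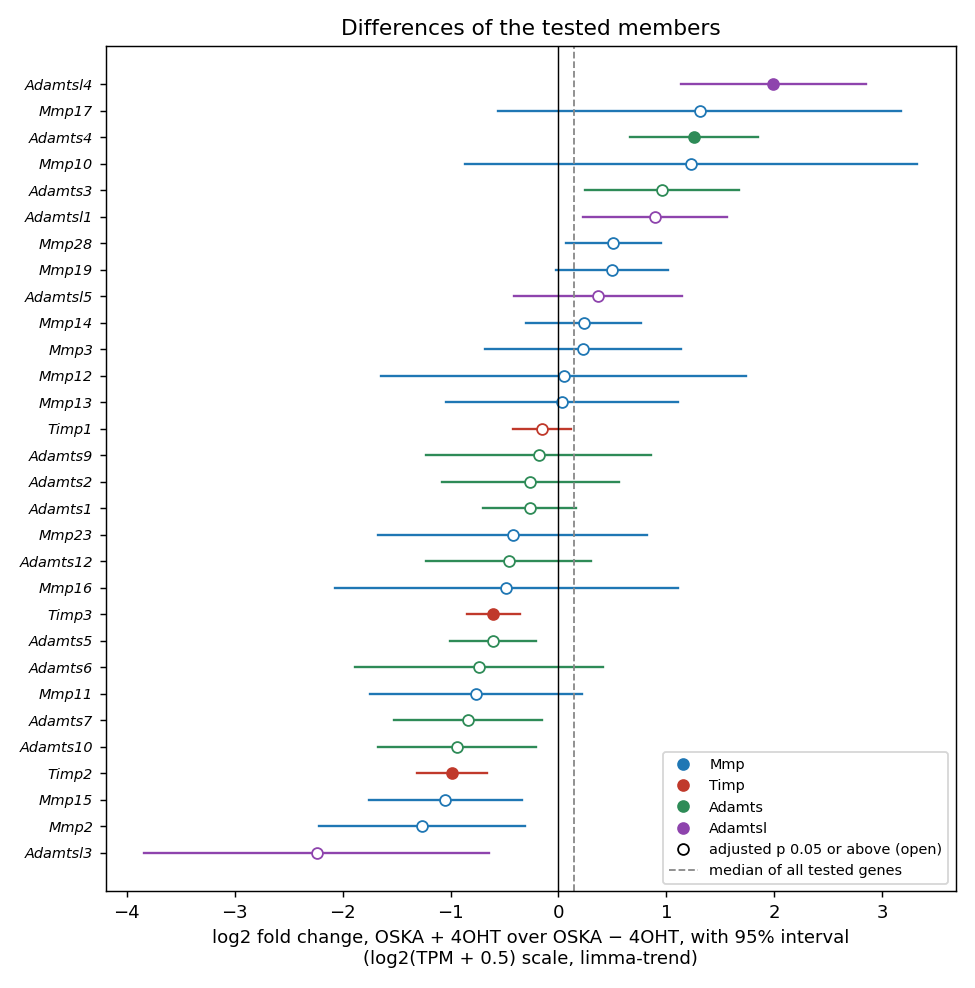
Log2 fold change of the 30 tested members, OSKA + 4OHT over OSKA − 4OHT, with 95% intervals from limma-trend on log2(TPM + 0.5). Filled points passed at an adjusted p below 0.05 (Adamtsl4, Adamts4, Timp2 and Timp3), and the dashed line is the median of all tested genes, 0.14.

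Among the ADAMTS genes Adamts4 rose, and the summed level was lower in each treated well. Of 10 tested Adamts genes 1 rose, 0 fell by limma-trend, and 8 had a negative log2 fold change. An unadjusted p below 0.05 was seen in 5 of them, beside 3281 of the 15382 genes tested. The groups did not overlap in 5, of which 2 were higher and 3 lower, beside 28.2% of all genes tested. Their summed level was 147.9, 169.4 and 136.7 TPM in OSKA − 4OHT and 110.7, 121.5 and 103.2 TPM in OSKA + 4OHT. The median log2 fold change was −0.37.

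Adamts4, an aggrecanase that is low in resting fibroblasts and induced by inflammatory signals, was the single Adamts gene to pass. It lies on chr1:171250421-171260637, plus strand, and was at 2.88, 3.34 and 2.48 TPM in OSKA − 4OHT and at 7.88, 7.95 and 6.96 TPM in OSKA + 4OHT. The lowest treated well stood at more than the highest mock-treated well, and both groups were tight. The mean went from 2.90 ± 0.435 to 7.6 ± 0.554 TPM (SD, n = 3), a log2 fold change of 1.26 (SE 0.245, 95% interval 0.67 to 1.85, adjusted p = 0.0401). With any of the 6 wells left out the adjusted p was 0.0840 to 0.135, so that the call did not hold without each of them.

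Adamts5, the other main aggrecanase of cartilage, was at 25.8, 23.4 and 23.8 TPM without 4OHT and at 16.8, 16.5 and 14.2 TPM with it (chr16:85856173-85901828). Each treated well was lower, and the log2 fold change was −0.61 (SE 0.164, 95% interval −1.0 to −0.21), with an adjusted p of 0.0925 that fell below 0.05 when wells were scaled by a trimmed mean of log ratios or by quantile normalization (lowest 0.0400). The ratio of Adamts5 to Adamts4 within a well was 8.97, 6.98 and 9.62 in OSKA − 4OHT and 2.13, 2.08 and 2.04 in OSKA + 4OHT. Adamts5 thus stayed above Adamts4 in every well, by a smaller margin with 4OHT.

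Adamts1, an aggrecanase and versicanase that neighbours Adamts5 on chromosome 16 (chr16:85793827-85803113), was the most abundant Adamts gene. It was at 48.0, 46.1 and 49.9 TPM without 4OHT and at 40.1, 47.7 and 32.8 TPM with it, with overlap (log2 fold change −0.27, 95% interval −0.70 to 0.16, adjusted p = 0.452). Adamts7, which cuts cartilage oligomeric matrix protein, was at 34.8, 65.9 and 37.7 TPM without 4OHT and at 20.3, 26.0 and 27.8 TPM with it. It was lower in each treated well (log2 fold change −0.84, adjusted p = 0.159).

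The other ADAMTS members are given to account for each. The procollagen N-proteinases Adamts2, Adamts3 and Adamts14 summed to 6.72, 8.25 and 5.65 TPM without 4OHT and to 10.9, 9.30 and 9.97 TPM with it. Within that sum Adamts3 was higher in each treated well, at 7.18, 6.19 and 7.64 against 3.53, 4.47 and 2.35 TPM (log2 fold change 0.96, adjusted p = 0.129), while Adamts2 overlapped at 2.01 to 3.43 TPM over all wells. Adamts10, a fibrillin-binding member, was lower in each treated well, at 4.25, 3.26 and 3.0 against 8.31, 8.59 and 5.05 TPM (log2 fold change −0.94, adjusted p = 0.141). Adamts6 (2.75 to 13.3 TPM), Adamts12 (2.49 to 5.24 TPM) and Adamts9 (1.16 to 2.45 TPM) overlapped between the groups.

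Adamtsl genes were the family whose sum was higher in each treated well. This sum was 57.7, 47.4 and 43.4 TPM in OSKA − 4OHT and 85.7, 99.3 and 176.5 TPM in OSKA + 4OHT, a mean 2.44 times as high. Most of that difference came from Adamtsl4. Without it the family summed to 33.9, 31.7 and 28.4 TPM without 4OHT and to 34.3, 38.0 and 58.1 TPM with it, a mean 1.39 times as high, with the lowest treated well just above the highest mock-treated well. Of 4 tested Adamtsl genes 1 rose, and the groups did not overlap in 3 (2 higher, 1 lower), beside the same 28.2% of all genes tested. The 1 lower was Adamtsl3, which entered the test through the OSKA − 4OHT wells alone, so nothing is drawn from its place here.

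Adamtsl4, which binds fibrillin-1 and is needed for the fibers that hold the eye lens, showed the largest rise among the 4 members that passed. It lies on chr3:95676201-95687917, minus strand, and was at 23.8, 15.7 and 15.0 TPM in OSKA − 4OHT and at 51.4, 61.3 and 118.3 TPM in OSKA + 4OHT. Each treated well was above each mock-treated well, and OSKA + 4OHT replicate 3 stood well above the other two. The mean went from 18.1 ± 4.89 to 77 ± 36.1 TPM (SD, n = 3), a 4.25-fold difference of means and a log2 fold change of 1.99 (SE 0.356, 95% interval 1.13 to 2.85, adjusted p = 0.0317). With any of the 6 wells left out the adjusted p was 0.0559 to 0.121, and the log2 fold change stayed between 1.64 and 2.23 over all the alternatives.

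Adamtsl5 was at 18.3, 17 and 19.4 TPM without 4OHT and at 21.7, 15.9 and 37.9 TPM with it (chr10:80339110-80348412, log2 fold change 0.36, 95% interval −0.42 to 1.14, adjusted p = 0.570). Adamtsl1, also called punctin, was at 11, 8.90 and 7.93 TPM and at 12.3, 21.9 and 19.9 TPM (chr4:85514172-86428385, log2 fold change 0.89, adjusted p = 0.129). Adamtsl1 was higher in each treated well, whereas Adamtsl5 overlapped. Adamtsl3 went the other way, at 4.38, 4.35 and 1.06 TPM without 4OHT and at 0.268, 0.0663 and 0.307 TPM with it. Its log2 fold change was −2.24 (SE 0.663, adjusted p = 0.117, and 0.0401 without OSKA − 4OHT replicate 3). Adamtsl3 reached the mean of 1 TPM needed for the test through the OSKA − 4OHT wells alone, so nothing is drawn from its test or its place among the non-overlapping members.

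Of the 20 members below the test's mean level, 5 were listed at 0 in all wells (Mmp8, Mmp20, Mmp21, Adamts13 and Adamts18) and 6 were above 0 in 1 or 2 wells. Apart from the 4.84 TPM of Mmp7 in 1 well, the highest value was 1.45 TPM, for Adamtsl2. Of those with values in most wells, Adamts17 was at 0.691, 0.888 and 0.885 TPM without 4OHT and at 0.220, 0.278 and 0.242 TPM with it, and Adamts15, an aggrecanase, at 0.714, 1.03 and 0.825 against 0.426, 0.411 and 0.332 TPM. Adamts20 was at 0, 0.138 and 0.105 TPM without 4OHT and at 0.742, 0.140 and 0.343 TPM with it. Such levels are too low for a fold change to be read from them. The rest, Mmp24, Mmp25, Adamts8, Adamts14, Adamts16 and Adamts19, did not exceed 1.10 TPM in any well.

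Several other genes that act on, regulate or are cut by these proteases were compared from lists of the surrounding pathway. Over all genes tested 3.52% rose and 1.97% fell, and the counts of every list below stand beside these shares. In the plasminogen system, whose protease plasmin can activate MMP precursors, 0 of 14 tested genes rose and 2 fell by limma-trend, and the median log2 fold change was −0.25. Among them F2r, the thrombin receptor PAR1, fell from 115 ± 14.6 to 40.6 ± 2.75 TPM (log2 fold change −1.49, adjusted p = 0.00613). The activators Plau and Plat, at means of 12.6 and 10.8 TPM without 4OHT and 8.47 and 13.0 TPM with it, did not pass (adjusted p = 0.230 and 0.731).

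In a list of other protease inhibitors and related genes, 1 of 16 rose and 3 fell (Cst3, Serpinf1 and Sparc), with a median log2 fold change of 0.51. Not every gene of this list encodes a protease inhibitor. Spint1, which inhibits serine proteases at the surface of epithelial cells, rose from 6.11 ± 1.31 to 36.2 ± 9.72 TPM (log2 fold change 2.46, adjusted p = 0.00744). Cst3, the cathepsin inhibitor cystatin C, fell from 726 ± 100.9 to 413 ± 50 TPM (log2 fold change −0.81, adjusted p = 0.0326). Reck, a membrane-anchored inhibitor of MMPs, had means of 10.4 and 10.3 TPM (adjusted p = 0.990).

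Of the 9 tested ADAM genes, whose products shed proteins from the cell surface, 1 rose and 1 fell, with a median log2 fold change of 0.16. Adam19 rose from 18.1 ± 2.80 to 50 ± 5.99 TPM (log2 fold change 1.44, adjusted p = 0.0120) and Adam9 fell from 110.2 ± 8.31 to 69.5 ± 2.56 TPM (log2 fold change −0.66, adjusted p = 0.0366). Of 16 cathepsins and other matrix-degrading enzymes 1 rose and 1 fell, with a median of 0.06. Hpse, the heparan sulfate-cutting enzyme heparanase, rose from 3.91 ± 0.649 to 11.4 ± 2.00 TPM (adjusted p = 0.0285), and Ctsl, the lysosomal protease cathepsin L, fell from 1001 ± 73.7 to 563 ± 56.4 TPM (adjusted p = 0.0145). No procollagen C-proteinase or enhancer (0 of 4, 1 at an unadjusted p below 0.05, median −0.33) and no proprotein convertase (0 of 6, 2 at an unadjusted p below 0.05, median −0.46) passed limma-trend. An unadjusted p below 0.05 was seen in 3281 of the 15382 genes tested.

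AP-1 subunits and other regulators of protease genes had a median log2 fold change of −0.66 over 17 tested genes, of which 0 rose and 2 fell. The groups did not overlap in 10 of these, 1 higher and 9 lower, beside 28.2% of all genes tested (18.1% higher and 10% lower). Fosb, an AP-1 subunit, fell from 40.9 ± 6.70 to 15.8 ± 4.70 TPM (log2 fold change −1.38, adjusted p = 0.0422), and Etv4, an ETS-family factor, fell from 24.5 ± 3.47 to 10.1 ± 1.97 TPM (log2 fold change −1.25, adjusted p = 0.0298). Fos itself was at 348, 334 and 221 TPM without 4OHT and at 205, 166 and 124 TPM with it (adjusted p = 0.113), and Jun overlapped at 27.3 to 47.9 and 40.3 to 47.8 TPM (adjusted p = 0.545).

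Receptors and docking proteins for these proteases showed 3 falls and 0 rises among 12 tested genes, with a median log2 fold change of 0.00. Lrp1, the receptor that takes up TIMP3, MMPs and ADAMTS enzymes from the medium, fell from 388 ± 17.8 to 200 ± 18 TPM (log2 fold change −0.96, adjusted p = 0.0100). Of 16 substrates and binding partners of the ADAMTS and ADAMTSL proteins 1 rose and 4 fell, beside 3.52% and 1.97% of all genes tested. The median log2 fold change of the 16 was −0.09. Col3a1, type III collagen, rose from 433 ± 12.2 to 1023 ± 140.1 TPM (log2 fold change 1.23, adjusted p = 0.00582), whereas Thbs1, thrombospondin 1, fell from 2097 ± 229 to 389.8 ± 26.4 TPM (log2 fold change −2.42, adjusted p = 0.00298). Versican, Vcan, the proteoglycan cut by ADAMTS1, ADAMTS4 and ADAMTS5, had means of 72.1 and 71.2 TPM (adjusted p = 0.991), and fibrillin-1, Fbn1, of 216 and 191 TPM (adjusted p = 0.415).

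Summed markers of pluripotent cells, fibroblasts and macrophages did not overlap between the groups. Those of neutrophils, of endothelial cells, and of chondrocytes and osteoblasts overlapped. Of 9 tested pluripotent cell markers 6 rose. Nanog, Zfp42 and Dppa5a, which are among the 6, entered the test through the OSKA + 4OHT wells alone, so nothing is drawn from their calls. The pluripotent cell markers summed to 25.8 to 37.8 TPM in OSKA − 4OHT and 133.6 to 139.0 TPM in OSKA + 4OHT. The sum of 11 fibroblast markers was 6702 to 8590 TPM without and 5058 to 6507 TPM with 4OHT, with 2 rises (Lum and Col3a1) and 2 falls (Pdgfrb and Col1a2). Vim was the largest part of this sum, with means of 3844 and 2668 TPM, and did not pass (limma-trend adjusted p = 0.163). Of the fibroblast markers 3 were higher and 6 lower without overlap, beside 18.1% and 10% of all genes tested. Macrophage markers, of which 13 were tested and Lyz2 fell, summed to 186.4 to 226.7 and 130.2 to 145.7 TPM. Lyz2 was the largest part of this sum, with means of 95.2 and 51.8 TPM. The groups did not overlap in 2 of the 13, both lower, beside 28.2% of all genes tested. Cd68 overlapped, with means of 14.9 and 19.0 TPM. The Timp sum, the Adamts sum and the Adamtsl sum moved between the same wells, and the part of these cell types in them was not tested. Neutrophil markers summed to 15.8 to 17.3 and 16.1 to 24.1 TPM, with Elane, Mpo, Camp and Ngp listed at 0 in every well, and endothelial markers to 21.8 to 29.9 and 28.1 to 38.2 TPM. Chondrocyte and osteoblast markers summed to 24.7 to 30.7 and 28.5 to 41.2 TPM, with Matn1 and Ibsp at 0. Of 4 tested, Sox9 alone rose, from 2.18 ± 0.589 to 9.69 ± 0.591 TPM (adjusted p = 0.0159), and the median log2 fold change was −0.27. Runx2 (means 5.27 and 3.20 TPM) and Col10a1 (3.10 and 0.542 TPM) were lower in each treated well but did not pass, and Col2a1 overlapped. Col10a1 entered the test through the OSKA − 4OHT wells alone, so nothing is drawn from its place here.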

How the data were processed

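Expression was measured by polyA RNA-seq (KAPA Stranded mRNA-Seq, 50-base single-end reads) in 6 wells, 3 OSKA + 4OHT and 3 OSKA − 4OHT. The authors trimmed reads with Trim Galore and mapped them to mouse transcripts with Salmon. They deposited TPM for every gene, scaled to 1000000 in each well. Versions and annotation release are not given in the sources used here. The authors' own comparison columns (log fold change, log average level, F statistic and p-value) were not used. Symbols and positions came from GENCODE M21 (GRCm38), matched by identifier for 54097 of 54331 genes. Mmp1a, a polymorphic pseudogene there, was left out.

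Because TPM keep no depth, a count model was not applied. Genes averaging 1 TPM or more over the 6 wells were tested with limma-trend (limma 3.58.1, R 4.3.3) on log2(TPM + 0.5), without a block, with 2-sided p-values and Benjamini-Hochberg adjustment over 15382 genes. Sums, counts and promoter searches were made with pandas 2.3.3 under Python 3.11.15. In a simulation of this comparison over 15382 genes, 11% of 82 genes changed 2-fold and 43.2% of 118 changed 4-fold were recovered, with 9 false calls, and 0 calls were made where nothing changed. Only 200 genes were changed in it, whereas 845 were called in the data. Recovery after adjustment depends on the share of changed genes, so these rates need not hold for the data.

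The members and gene lists were chosen with earlier results of these data known. Named by rule were members with an adjusted p below 0.05, the Timp genes, Mmp2, Mmp3, Mmp9, Mmp10, Mmp13, Mmp14, Adamts1, Adamts4 and Adamts5, the 3 highest of the Mmp, Adamts and Adamtsl families, and the largest rise and fall of each pathway list. Not every result that this rule selects is reported here. Other names are there to account for every member or were chosen after their values were seen. Alternatives varied the pseudocount, filter, scaling, variance trend, replicate block, fold threshold and wells.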

Additional observations from a re-analysis of the deposited data

How the results depend on the processing

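Directions of Timp2, Timp3, Adamtsl4 and Adamts4 held under all 16 alternatives, but their calls depended on several. Instead of 2 members higher and 2 lower, there were 1 and 1 with no filter on low values, 1 and 2 when genes had to average 5 TPM, 1 and 3 with quantile normalization, 2 and 3 with trimmed-mean scaling, 1 and 0 without a variance trend, and 2 and 0 with a fold change above 2 as well. Leaving out wells 1 at a time gave 0 to 0 higher and 0 to 2 lower members, and 137 to 357 higher and 68 to 148 lower of all genes, against 542 and 303. Without OSKA + 4OHT replicate 1, 175 of the 845 genes called with all wells remained. Whether equal replicate numbers mark pairs is not given in the sources used here. The deviations of same-numbered wells correlated across genes at 0.0235, 0.0341 and 0.0837, which are small values. Every well but OSKA + 4OHT replicate 1 correlated best with its own number, a hint from the data and not from the design. A replicate block left 31 higher and 16 lower of all genes and 0 members in either direction. Trimmed-mean scaling moved the median of all genes from 0.14 to 0.02 and gave 458 higher and 481 lower genes, 48.8% higher instead of 64.1%, and quantile normalization moved the median to −0.005, with 49.7% higher. Mmp13 turned to −0.071 with trimmed-mean scaling, −0.33 with quantile normalization and −0.14 to 0.26 over wells left out, and Mmp3 spanned −0.051 to 0.62. Mmp12, Mmp16 and Mmp23 also changed sign in some alternatives. The cause of these shifts was not tested. TPM do not show how much depth limits low members.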
